A study of Mus musculus with 6 samples.

Results

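Of the 38355 genes counted in whole cortical tissue of young and aged mice, 10 genes of brain endothelial cells and of the blood-brain barrier were followed here, namely Slc2a1, Mfsd2a, Slco1a4, Abcb1a, Cldn5, Ocln, Cdh5, Pecam1, Flt1 and Tek. They were chosen by name for their place in the barrier, with earlier results of these data known, and all 10 were matched to 1 Ensembl gene each and passed the filter on low counts, as did 17120 genes in all. Polyadenylated RNA was sequenced from cortical hemispheres of wild-type mice of the inbred strain C57BL/6 at 6 months (3 samples) and 16 months (3 samples), to ask which genes of the cortex change with age. The labels name no transgene and no treatment. All mice were anesthetized with chloral hydrate before dissection. One protocol text in the labels puts the younger mice at 3 months, against 6 in every other source. The labels do not state the sex. The paper says, in its methods for sorted cells, that RNA sequencing used males only. The Y-linked gene Ddx3y lay between 83.1 and 129.8 CPM (counts scaled to the library size) in all 6 samples, and the gene Xist between 0.167 and 3.07 CPM. Total counts on genes ranged from 29797253 to 46519280 per sample.

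Endothelial cells of brain capillaries form the blood-brain barrier. Tight junctions close the space between neighbouring cells, the traffic of vesicles through the cells is kept low, and the exchange of nutrients and drugs is left to carriers and efflux pumps in their membranes. Signals from pericytes, astrocytes and neurons, among them Wnt and VEGF ligands, induce and maintain these properties. In whole tissue, fewer endothelial cells and less RNA per endothelial cell cannot be told apart.

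Of the 10 genes, Mfsd2a alone passed the test for a difference between the ages (the quasi-likelihood test of edgeR, Benjamini-Hochberg adjusted p of 0.05 or less), and it was higher at 16 months. Over all 17120 tested genes, 1.67% passed this test, 0.783% as higher and 0.888% as lower. Slc2a1 was next in the upward direction and Cldn5 the farthest in the downward direction, and neither passed. The median log2 fold change of the 10 genes, 16 over 6 months, was −0.019, with 5 positive and 5 negative values, against a median of 0.0014 over all tested genes. In 4 of the 10 genes the samples of the ages lay apart, Mfsd2a and Slc2a1 being higher and Cldn5 and Flt1 lower in every sample of 16 months; 23.7% of all tested genes had samples that lay apart, 12.2% as higher and 11.5% as lower. Positive values made up 50.3% of all tested genes.

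**Figure D1:**
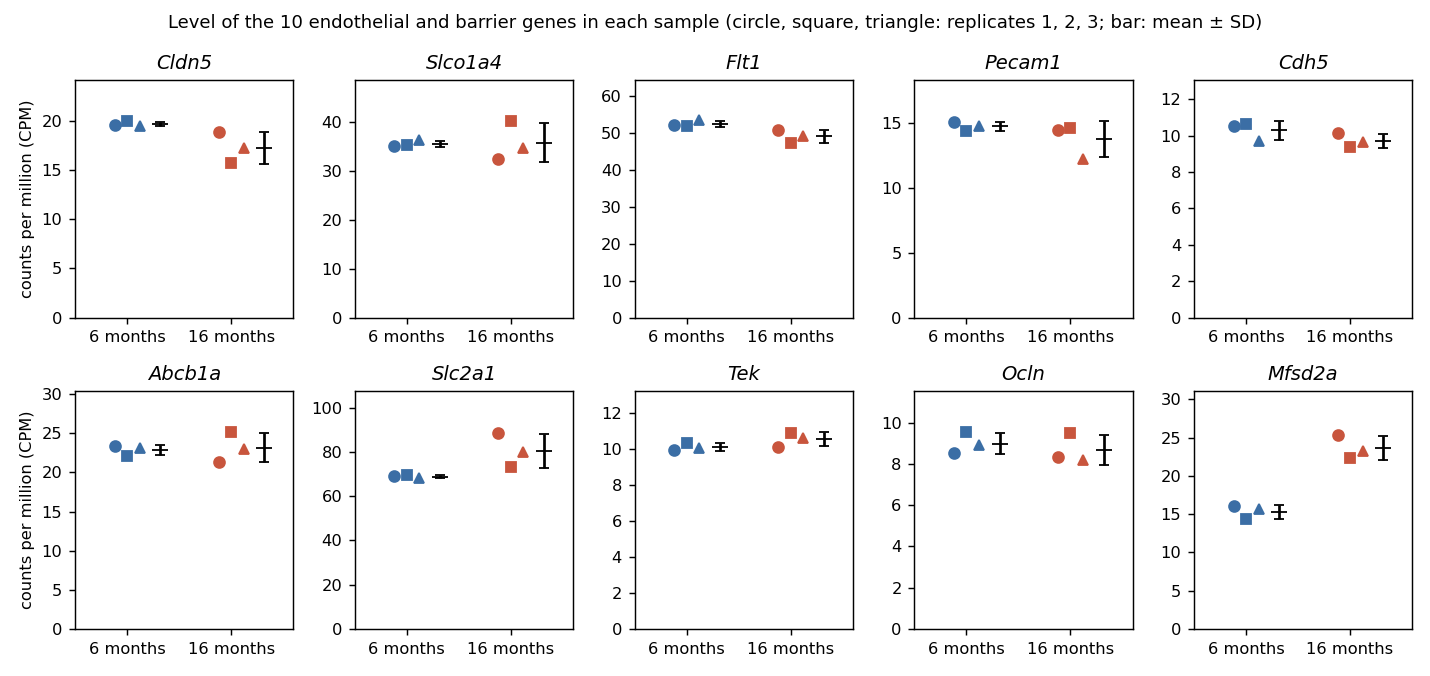
Level in CPM of each of the 10 genes in the 3 samples of 6 months (blue) and the 3 of 16 months (red); circles, squares and triangles are replicates 1, 2 and 3, and the bar is the mean ± SD. Mfsd2a lies between 14.3 and 16.0 CPM at 6 months and between 22.3 and 25.3 CPM at 16 months, while most other genes overlap or lie close together.

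Mfsd2a encodes the carrier that brings docosahexaenoic acid, as a lysophospholipid, across the endothelium, and is known to hold vesicle traffic through these cells low. The gene (ENSMUSG00000028655) is annotated on GRCm38 chromosome 4, bases 122946850 to 122961188, minus strand, and no exon of another annotated gene overlaps its exons. Raw counts were 750, 429 and 656 in the 3 young samples and 840, 698 and 793 in the 3 aged ones. In CPM the levels were 16.0, 14.3 and 15.6 CPM at 6 months and 25.3, 22.3 and 23.2 CPM at 16 months. Every sample of 16 months lay above every sample of 6 months, and the gap between the groups was larger than the spread within either. The means were 15.3 ± 0.895 and 23.6 ± 1.57 CPM (SD, n = 3 each), 1.54-fold higher at 16 months with a 95% interval of 1.37 to 1.72. On the log2 scale the difference was 0.62, with a standard error of 0.073 (edgeR's quasi-likelihood test, Benjamini-Hochberg adjusted P = 0.0033), the 38th smallest P of all tested genes. Across 16 alternative settings, among them each sample left out in turn, the log2 fold change stayed between 0.56 and 0.66 and the gene was called in all 16. For scale, Pvalb, the parvalbumin gene on which the study centres, fell by 1.21 on the log2 scale (edgeR, Benjamini-Hochberg adjusted P = 1.49e-05). The paper, which used DESeq2, reports a smaller log2 value for this fall.

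Slc2a1 encodes GLUT1, the glucose carrier of the barrier, which astrocytes and red cell precursors also express. Its gene (ENSMUSG00000028645) occupies positions 119108711 to 119137983 on the plus strand of chromosome 4, and 2.99% of its exon bases are shared with the antisense gene Gm12868. With 3247, 2083 and 2856 counts at 6 months and 2938, 2292 and 2727 at 16 months it was the most deeply counted of the 10. The levels were 69.3, 69.4 and 68.1 CPM at 6 months and 88.6, 73.1 and 79.8 CPM at 16 months. The 3 young samples were nearly equal, whereas the aged samples were all higher and spread over a wider range. The means of 68.9 ± 0.738 and 80.5 ± 7.78 CPM (SD, n = 3 each) gave 0.22 as log2 fold change (standard error 0.070), which did not pass the test (edgeR, Benjamini-Hochberg adjusted P = 0.145). The 95% interval of the fold change was 1.05 to 1.30. Without replicate 1 of 16 months the log2 fold change was 0.15 and Slc2a1 was not called (edgeR, Benjamini-Hochberg adjusted P = 0.103), and without replicate 2 of 16 months it was 0.29 and Slc2a1 was called (edgeR, Benjamini-Hochberg adjusted P = 0.00911, 12.7% of all genes called). With offsets for the GC content and length of genes the log2 fold change was 0.19 and Slc2a1 was called (edgeR, Benjamini-Hochberg adjusted P = 0.00471), in a fit that called 13.9% of all tested genes, 7.16% as higher and 6.72% as lower.

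Cldn5 encodes claudin-5, the main claudin of brain endothelial tight junctions. The gene (ENSMUSG00000041378), with 1416 exon bases the shortest of the 10, spans bases 18776847 to 18778262 of chromosome 16, plus strand. It had 19.6, 19.9 and 19.5 CPM at 6 months and 18.9, 15.7 and 17.2 CPM at 16 months. All aged samples were lower, but replicate 1 of 16 months lay close to the lowest young sample. The means were 19.7 ± 0.235 and 17.3 ± 1.63 CPM (SD, n = 3 each), or −0.19 as log2 fold change (standard error 0.075, edgeR, Benjamini-Hochberg adjusted P = 0.237). The 95% interval of the fold change was 0.783 to 0.987. Without replicate 1 of 16 months the log2 fold change was −0.26 and Cldn5 was called (edgeR, Benjamini-Hochberg adjusted P = 0.0330, 5.73% of all genes called, 2.79% as lower and 2.94% as higher), and without replicate 2 of 16 months it was −0.12 and Cldn5 was not called (edgeR, Benjamini-Hochberg adjusted P = 0.244). It was called with the offsets for GC content and length as well (−0.18, Benjamini-Hochberg adjusted P = 0.0304).

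The sequences before the start of Mfsd2a and Cldn5 are shown because these genes had the largest positive and the largest negative log2 fold change of the 10. Of the 10 genes, 8 were matched to RefSeq promoter windows of GRCm38.p6 and Pecam1 and Cdh5 were not; the Abcb1a window belongs to a start upstream of the gene model given here. The RefSeq start of Slc2a1 lies 34 bases inside the GENCODE gene, so that its window runs into the gene and is not printed. Each sequence holds the 250 bases before the annotated start, 5′ to 3′ on the strand of the gene, with 2 motifs in capitals, read on both strands. These are ACGTG, a form of the core of the hypoxia response element, and CCAAT, the CCAAT box, which reads ATTGG on the other strand. Other forms of the hypoxia core were not searched.
Mfsd2a, chr4:122961189-122961438, minus strand: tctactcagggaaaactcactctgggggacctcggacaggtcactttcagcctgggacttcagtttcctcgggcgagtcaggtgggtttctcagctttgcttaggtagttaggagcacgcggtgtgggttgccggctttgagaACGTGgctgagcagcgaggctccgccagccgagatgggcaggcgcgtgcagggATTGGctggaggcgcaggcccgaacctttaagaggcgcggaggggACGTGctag
Cldn5, chr16:18776597-18776846, plus strand: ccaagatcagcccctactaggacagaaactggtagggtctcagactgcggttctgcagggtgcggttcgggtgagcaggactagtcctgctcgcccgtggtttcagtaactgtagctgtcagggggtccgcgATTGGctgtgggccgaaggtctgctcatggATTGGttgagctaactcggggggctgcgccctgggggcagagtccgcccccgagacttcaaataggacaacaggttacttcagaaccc
ACGTG occurred in the windows of Mfsd2a, where it began 107 and 9 bases before the start, and of Slc2a1, where it began 36 bases before the RefSeq start and 2 bases before the GENCODE start, and in none of the other 6 genes with a window; 16.6% of all 32851 windows hold it. CCAAT occurred in the windows of 4 of the 8 genes, Cldn5, Slco1a4, Ocln and Mfsd2a, and in 33.8% of all windows; for Ocln it was found only in the second of its windows, of which 220 bases lie inside the gene. AGGAA, the core of ETS sites, which many endothelial genes carry, was found in 6 of the 8, all but Cldn5 and Slc2a1, and in 60.3% of all windows. A match describes the letters only.

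The other carriers of the set were level between the ages within the spread of the samples. Slco1a4, the organic anion carrier OATP1A4, had 35.1, 35.1 and 36.2 CPM at 6 months and 32.4, 40.0 and 34.7 CPM at 16 months. The young samples all lay inside the range of the aged ones, and the log2 fold change was 0.0081 (standard error 0.077), its sign changing when upper quartile normalization was used. Abcb1a encodes the drug efflux pump P-glycoprotein. Its levels were 23.3, 22.1 and 23.2 CPM at 6 months and 21.4, 25.1 and 23.0 CPM at 16 months. Here too the ages overlapped in full, with a log2 fold change of 0.017, a standard error of 0.070 and a 95% interval of the fold change from 0.907 to 1.13, and the sign turned with the offsets for GC content and length. An antisense gene, Gm42686, shares 10.1% of the exon bases of Abcb1a. The paralog Abcb1b, 87.2% identical to it over 4032 aligned bases, was far lower per kilobase of exon, with 0.609 ± 0.0416 CPM per kilobase against 4.17 ± 0.121 for Abcb1a at 6 months (SD, n = 3 each). At 16 months the values were 0.508 ± 0.0349 and 4.23 ± 0.344, and the difference between the ages did not pass the test for Abcb1b (log2 fold change −0.26, edgeR, Benjamini-Hochberg adjusted P = 0.213).

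Like Cldn5, the other junction genes of the set did not pass the test. Ocln encodes occludin, a membrane protein of tight junctions, and had 8.51, 9.53 and 8.92 CPM at 6 months and 8.33, 9.51 and 8.20 CPM at 16 months. The ages overlapped, with −0.047 as log2 fold change (standard error 0.085). Cdh5 encodes VE-cadherin, the cadherin of endothelial adherens junctions. It had 10.52, 10.7 and 9.68 CPM at 6 months and 10.1, 9.38 and 9.63 CPM at 16 months, so that replicate 1 of 16 months reached into the young range (log2 fold change −0.080, standard error 0.074). Pecam1 encodes CD31, an adhesion molecule at the contacts of endothelial cells that platelets and leukocytes also carry. Its levels were 15.0, 14.3 and 14.8 CPM at 6 months and 14.5, 14.6 and 12.2 CPM at 16 months. Replicate 3 of 16 months was low, and the other aged samples lay among the young ones (log2 fold change −0.10, standard error 0.081). Without that sample the log2 fold change of Pecam1 was −0.020. For Ocln it ran from −0.11 to −0.0071 with single samples left out, and for Cdh5 from −0.12 to −0.056. The 95% intervals of the fold change were 0.848 to 1.10 for Ocln, 0.844 to 1.06 for Cdh5 and 0.823 to 1.06 for Pecam1.

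Neither receptor of the set passed the test. Flt1 encodes VEGF receptor 1, which binds VEGF and placental growth factor and, in its soluble form, keeps VEGF from its other receptor. It had 52.2, 51.9 and 53.4 CPM at 6 months and 50.8, 47.2 and 49.1 CPM at 16 months. Every aged sample was lower, by a small margin, and the log2 fold change was −0.098 (standard error 0.053, edgeR, Benjamini-Hochberg adjusted P = 0.374). With offsets for GC content and length it was −0.16 and Flt1 was called (edgeR, Benjamini-Hochberg adjusted P = 0.0141, 13.9% of all genes called). Tek encodes TIE2, the receptor of the angiopoietins. Its levels of 9.92, 10.3 and 10.04 CPM at 6 months and 10.1, 10.9 and 10.6 CPM at 16 months overlapped, with 0.065 as log2 fold change (standard error 0.069).

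**Figure D2:**
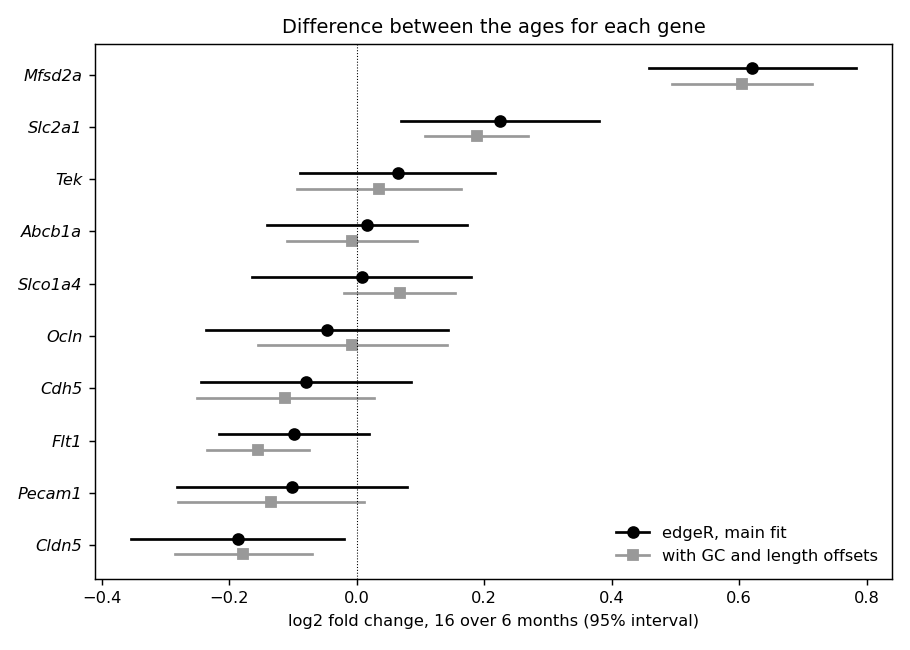
Log2 fold change, 16 over 6 months, of the 10 genes with its 95% interval, by edgeR's quasi-likelihood fit (black) and by the same fit with offsets for the GC content and length of genes (grey). Mfsd2a stands at 0.62 and 0.60, and the intervals of the other 9 genes lie between −0.35 and 0.38.

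Each receptor has a partner outside the set. Kdr, VEGF receptor 2, which carries most of the VEGF signal in endothelial cells, had 10.3, 10.47 and 10.4 CPM at 6 months and 7.93, 7.69 and 8.11 CPM at 16 months. The ages lay clearly apart, and Kdr fell by 0.39 on the log2 scale with a standard error of 0.068 (edgeR, Benjamini-Hochberg adjusted P = 0.0231). Whether this differed from the smaller value of Flt1 was not tested. Tie1, which acts with TIE2, had a log2 fold change of 0.17 (edgeR, Benjamini-Hochberg adjusted P = 0.307), and Vegfa, the VEGF ligand, of −0.10 (edgeR, Benjamini-Hochberg adjusted P = 0.336).

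To compare levels between genes, CPM were divided by the kilobases of exon of each gene. At 6 months Slc2a1 was the highest with 19.7 ± 0.210 CPM per kilobase (SD, n = 3), followed by Cldn5 with 13.9 ± 0.166, Mfsd2a with 6.81 ± 0.398, Slco1a4 with 5.53 ± 0.0988, Abcb1a with 4.17 ± 0.121 and Flt1 with 3.89 ± 0.0570. The samples of each of these genes lay apart from those of the next. Cdh5, Pecam1, Tek and Ocln followed between 2.45 and 2.13 CPM per kilobase, where Cdh5 overlapped with Pecam1 and Tek with Ocln. At 16 months Slc2a1 stood at 23.0 ± 2.22, Cldn5 at 12.2 ± 1.148 and Mfsd2a at 10.49 ± 0.699 CPM per kilobase (SD, n = 3 each), and the samples of Cldn5 and Mfsd2a overlapped, which they had not at 6 months. The order depends on the length used, since for most of these genes the exons of all transcripts together are longer than the longest transcript. Per kilobase of the longest transcript, Slco1a4 with 9.28 and Flt1 with 7.61 stood above Mfsd2a with 7.12 at 6 months, whereas at 16 months the mean of Mfsd2a was 10.98, that of Slco1a4 9.34 and that of Flt1 7.11, and the samples of Mfsd2a overlapped with those of Slco1a4.

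The spread between samples was larger at 16 months in 9 of the 10 genes, all but Cdh5, by the SD of log2 CPM; this held for 75.5% of all tested genes. After correction for GC content and length it was larger in 6 of the 10 genes and in 61.9% of all tested genes. Replicates 1 and 2 of 16 months deviated from the mean of their age in opposite directions that followed the GC content of the transcripts. In replicate 1 the 5 genes of the higher GC content (at least 50.5%) all lay above the mean of the age and 1 of the 5 with lower GC content did. In replicate 2 the reverse held, with 5 of the 5 genes of lower GC content above the mean and 0 of the others. Over all tested genes the correlation of the deviations with GC content was 0.588 and −0.582 in these samples and between −0.130 and 0.160 in the other 4; it is a description across genes, which share a library and are not independent. The deviations of a gene within an age cancel out by construction. With a correlation of −0.055 in replicate 3 of 16 months, the opposite values of replicates 1 and 2 are therefore not separate results. Which of these samples is unusual cannot be told from them. The part of GC content in the fold changes was not tested beyond the offsets. With these offsets 4 of the 10 genes were called, Mfsd2a and Slc2a1 higher and Cldn5 and Flt1 lower, where 13.9% of all tested genes were called. With offsets and replicate block the same 4 were called, against 18.3% of all tested genes, and with the block alone Mfsd2a was called, against 4.57%. With 1 sample left out at a time, between 1 and 2 of the 10 genes were called; the shares of all tested genes were 0.318%, 0.328% and 0.277% without replicates 1, 2 and 3 of 6 months and 5.73%, 12.7% and 0.335% without those of 16 months. Without replicate 2 of 16 months 6.32% were called as higher and 6.40% as lower. DESeq2's Wald test called Mfsd2a and 3.03% of all tested genes. Under the remaining settings Mfsd2a was the 1 gene called, with 1.69% (size factors of DESeq2), 1.70% (upper quartile normalization), 2.35% (no filter on low counts), 1.67% (at least 10 counts in every sample, and likewise the newer form of the fit) and 1.64% (robust fit) of all tested genes.

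**Figure D3:**
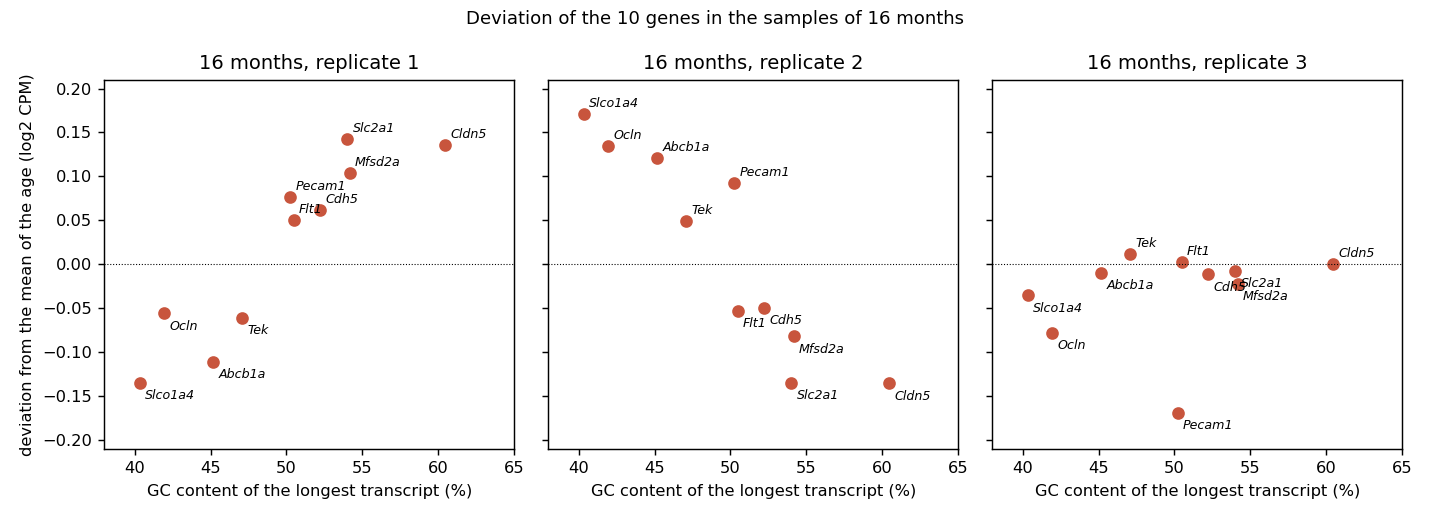
Deviation of the log2 CPM of each of the 10 genes from the mean of its age (vertical axis) against the GC content of its longest transcript in percent (horizontal axis), for the 3 samples of 16 months. Deviations run from −0.14 for Slco1a4 to 0.14 for Slc2a1 in replicate 1 and from 0.17 for Slco1a4 to −0.14 for Cldn5 in replicate 2, and show no such order in replicate 3.

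The correlation of each gene with the mean of the other 9, across the 6 samples, lay between −0.77 for Cldn5 and 0.24 for Slc2a1, as a description over 6 samples that share depth and base composition with every other gene. After correction for GC content and length it lay between −0.86 for Cldn5 and 0.75 for Slco1a4, and that of Slco1a4 had been −0.31 before. It was positive before the correction for Slc2a1 and Tek alone, so the mean of the 10 is not a profile that they share. The genes most like the mean of the 10 were Mfsd3, Trmt12, A730081D07Rik, Cmtr1 and Alg12 (Pearson's r between 0.977 and 0.987 over 6 samples), none of which is an endothelial marker of the lists used here. They were picked as the highest of all tested genes outside the 10, so high values follow in part from the choice. After the correction r lay between 0.823 and 0.983 over 6 samples for all but Cmtr1, for which it was 0.385. Among 24 other endothelial genes the median r was −0.052.

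These 24 other genes that mark endothelial cells were all expressed above the filter. Kdr was the only one called, 11 had positive and 13 negative values, and the median log2 fold change was −0.027 against 0.0014 over all tested genes. Cd34, a sialomucin of endothelial and progenitor cells, was at 78.0 CPM at 6 months and 70.8 at 16 months, Ptprb, the vascular endothelial phosphatase, at 34.3 and 33.9, Podxl at 30.3 and 31.0, and Adgrl4 at 19.7 and 21.04. None of these 4 passed the test. The summed level of the 24 genes was 307 ± 4.77 CPM at 6 months and 301 ± 4.18 CPM at 16 months (SD, n = 3 each), and the ages overlapped. The sum of the 10 genes themselves was 259 ± 1.02 and 272 ± 7.31 CPM (SD, n = 3 each). Here the ages lay apart, with 257.6 to 259.5 CPM at 6 months and 267.7 to 280.4 CPM at 16 months. Within this sum Slc2a1 stood at 68.9 and 80.5 CPM and Mfsd2a at 15.3 and 23.6 CPM.

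In the lists of barrier functions no gene passed the test. Of 15 tested junction genes 6 had positive and 9 negative values, with a median log2 fold change of −0.034. The most abundant were Ctnnb1 (β-catenin), which had 478 CPM at 6 months and 520 at 16 months, Afdn (afadin) with 153 and 144, Tjp1 (ZO-1) with 151 and 161 and Ctnnd1 (p120-catenin) with 112 and 118. As in the other lists, these genes were named by their level in whole tissue. Which cells carry their RNA was not tested, so the levels are not those of the vessel alone. Of 15 other carriers and efflux pumps 8 had positive and 7 negative values and the median was 0.019, with Tfrc, the transferrin receptor, at 143 CPM at both ages, Slc6a6, the taurine carrier, at 142 and 128, Slc3a2 at 100.0 and 109 and Slc38a3 at 69.9 and 77.8. Of 8 genes of caveolae and transcytosis, the route that Mfsd2a restrains, 7 had negative values and the median was −0.12. Cav2 was at 76.1 and 62.8 CPM, Pacsin2 at 63.6 and 66.8, Cavin1 at 23.6 and 21.04 and Cavin3 at 19.1 and 18.3. The summed level of the caveolae genes was 226 ± 6.53 CPM at 6 months and 209 ± 9.71 CPM at 16 months (SD, n = 3 each). The ages lay apart in 4 junction genes as higher and in 5 as lower, and in 4 and 4 of the other carriers. In the caveolae list they lay apart in 1 gene as higher and in 1 as lower. Over all tested genes 12.2% lay apart as higher and 11.5% as lower. With offsets for GC content and length 5 junction genes, 6 other carriers and 2 caveolae genes were called, against 13.9% of all tested genes.

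The signals that act on the vessel showed no call either. Of 13 tested ligands, receptors and regulators of VEGF and angiopoietin signalling 7 had positive and 6 negative values (median 0.046). Among these genes the ages lay apart in 4 as higher and in 2 as lower. Besides Vegfa, at 98.8 and 91.9 CPM, these included Nrp1, the VEGF co-receptor neuropilin-1, at 53.9 and 59.1, Vegfb at 49.4 and 51.0 and Apln, the ligand apelin, at 41.4 and 44.8. Of 15 genes of Wnt and norrin signalling 11 had positive values (median 0.083), with Lrp6 at 78.1 CPM at 6 months and 83.0 at 16 months, Wnt7b at 27.5 and 28.9, Axin2 at 24.7 and 26.9 and Tspan12 at 23.3 and 23.1. Among 6 tested genes of endothelial activation the median was 0.058. Ackr1, the chemokine receptor of venules, was at 28.0 and 32.5 CPM, Vcam1 at 28.2 and 28.5, Vwf at 15.7 and 16.9 and Icam1 at 1.65 and 1.62. The gene Cadm3 on the same strand overlaps 25.7% of the exon bases of Ackr1, and its part in that level was not tested. Sele, Selp and Lcn2 did not pass the filter on low counts.

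Of the wall around the endothelium, the 12 basement membrane genes (median −0.091, 9 negative) and the 15 genes of pericytes and smooth muscle (median −0.073, 10 negative) held no called gene. With offsets for GC content and length 6 of the former and 1 of the latter were called, against 13.9% of all tested genes. Sparc was at 210 CPM at 6 months and 205 at 16 months, Agrn at 207 and 200, Col4a2 at 76.0 and 66.8 and Col4a1 at 65.8 and 58.3. Among the mural genes Rgs5 was at 82.0 and 72.1 CPM, Vtn at 36.6 and 35.7, Cspg4 at 13.7 and 16.3 and Pdgfrb at 15.6 and 15.9. Over all tested genes 50.3% had positive values and 0.888% were called lower. Fibroblast genes had the lowest median of all lists, −0.25, with 8 of 9 values negative, and 2 of them fell. These were Ogn, which had 12.1 ± 0.344 CPM at 6 months and 8.08 ± 1.16 at 16 months, and Igf2 with 48.5 ± 1.01 and 35.1 ± 0.739 (SD, n = 3 each; edgeR, Benjamini-Hochberg adjusted P = 0.0204 and 0.0025). Other annotated genes overlap 64.5% of the exon bases of Igf2. Dcn was at 23.2 and 19.7 CPM and Islr at 11.4 and 10.8, and neither passed the test. The summed level of all 9 genes went from 121.8 to 126.7 CPM at 6 months to 96.98 to 99.1 CPM at 16 months, without overlap. Sums also lay apart for the 10 genes, junctions, other carriers, Wnt and norrin signalling, caveolae and activation. The same held for mural cells, astrocytes, red cells with platelets and choroid plexus. They overlapped for the other endothelial genes, VEGF and angiopoietin signalling, basement membrane, microglia, neurons and oligodendrocytes. In the mean, Igf2 made up 48.5 of 124 CPM at 6 months and 35.1 of 97.9 CPM at 16 months.

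**Figure D4:**
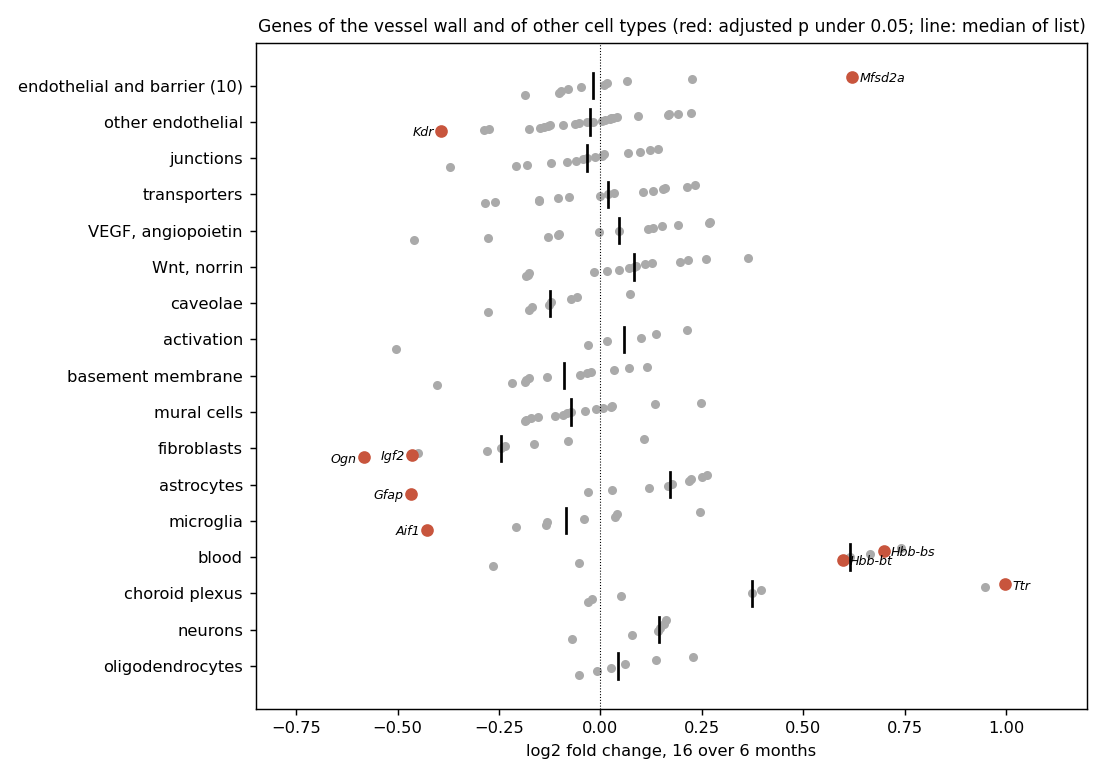
Log2 fold change, 16 over 6 months, of every tested gene of the 10 endothelial and barrier genes and of 16 other lists; red points passed an adjusted p of 0.05, grey points did not, and the black line is the median of the list. Called genes are Mfsd2a, Kdr, Ogn, Igf2, Gfap, Aif1, Hbb-bs, Hbb-bt and Ttr, and the median of the 10 genes is −0.019.

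Markers of other cells moved with age beside the endothelial genes, and their part in the values of Mfsd2a and Slc2a1 was not tested. Of 7 genes of red cells and platelets 5 had positive values with the ages apart, where 12.2% of all tested genes lay apart as higher. Hbb-bs and Hbb-bt were called higher (log2 fold changes 0.70 and 0.60, edgeR, Benjamini-Hochberg adjusted P = 0.0034 and 0.0126), where 0.783% of all tested genes were called higher. Near copies were searched only for the 10 genes, so both globin genes stay uncertain one by one. The summed level of the list was 29.8 to 33.3 CPM at 6 months and 46.8 to 53.1 CPM at 16 months, while the platelet genes Pf4 and Itga2b, named after their values were seen, overlapped between the ages. Hba-a1 was at 2.73 and 4.25 CPM and Alas2 at 1.95 and 3.28, and neither passed the test. Of 7 tested choroid plexus genes Ttr was called higher, from 8.95 to 17.8 CPM (edgeR, Benjamini-Hochberg adjusted P = 0.000337), the median was 0.37, and the sum lay at 17.4 to 18.5 CPM at 6 months and 25.8 to 28.6 CPM at 16 months. Kl, Clic6 and Kcnj13 of that list did not pass the test, with log2 fold changes of −0.021, 0.40 and −0.032. Of the genes of astrocytes and their endfeet 8 of 10 had positive values (median 0.17), and the ages lay apart in 6 as higher and in 1 as lower. In this list Gfap fell from 259 to 187 CPM (edgeR, Benjamini-Hochberg adjusted P = 0.0033), while Gja1 (connexin 43) was at 234 and 273 CPM, Kcnj10 at 231 and 261 and Mlc1 at 201 and 205, none of them called. Aif1 fell among 8 microglia genes (log2 fold change −0.43, edgeR, Benjamini-Hochberg adjusted P = 0.0418; median of the list −0.086), and Csf1r, at 99.3 and 118 CPM, P2ry12 and Cx3cr1 did not pass. In the neuron list (6 genes, median 0.15, among them Snap25, Syt1, Slc17a7 and Gad1) and the oligodendrocyte list (6 genes, median 0.043, among them Mbp, Mobp and Cnp) no gene was called. In all, 8 of 176 tested genes of the 16 lists were called, 3 higher and 5 lower, where 1.67% of all tested genes were called.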

How the data were processed

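Whole cortical RNA was sequenced as paired reads, with 3 samples at each age. The deposited values are raw read counts per Ensembl gene, not normalized, which the authors obtained by alignment to mm10 with STAR in 2-pass mode and counting with HTSeq; the annotation release and the strand setting are not given in the sources used here. The submitters' processing notes instead name STAR 2.3.0e and featureCounts 1.5.0-p1, while the files end in the summary lines that HTSeq writes. Uniquely aligned reads on no gene (22.0% to 27.7% per sample) or on more than 1 gene (1.42% to 1.57%) were left out. Reads on overlapping genes of opposite strands cannot be told apart with certainty.

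Of 38355 listed genes, 36602 were matched to GENCODE M21 (GRCm38), which gave names, positions, exon lengths and GC content. The counts entered edgeR (version 4.0.16, R version 4.3.3) with TMM normalization, filterByExpr (17120 genes) and the quasi-likelihood test without covariates, in its older form, with Benjamini-Hochberg adjustment over all tested genes. The paper used DESeq2, which was an alternative here (1.42.0). Standard errors are the absolute log2 fold change divided by the square root of F, and 95% intervals follow from them. CPM are scaled by TMM; log2 CPM use a prior count of 2. The labels do not say that the samples of an age are separate animals; the study gives 3 brains per age. No pair of samples held identical counts. The replicate numbers that both ages share were not taken as a pairing. Near copies were searched with blastn 2.17.0 and figures drawn with matplotlib 3.10.9. The edgeR and DESeq2 fits were also run on simulated counts with known changes.

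The 10 genes and the 16 lists were chosen with earlier results of these data known. Named were the 10 genes, every called gene of a list and up to 4 of its most abundant genes (some are not reported here), the partners or paralog Kdr, Tie1, Abcb1b and Vegfa, the 5 genes most like the mean of the 10, and Pvalb. Alternatives were other normalizations, filters and forms of the fit, DESeq2, the replicate block, offsets for GC content and length (medians over 20 bins), and each sample left out.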

Additional observations from a re-analysis of the deposited data

How the results depend on the processing

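Under 16 alternative settings 1 of the 10 genes was called, as with the first fit, except with offsets for GC content and length (4 genes), with these offsets and the replicate block (4 genes), and with single samples left out (1 to 2 genes); Mfsd2a was called under each. The second gene was Cldn5 without replicate 1 of 16 months and Slc2a1 without replicate 2; with samples left out the log2 fold change of Cldn5 ran from −0.26 to −0.12, that of Slc2a1 from 0.15 to 0.29 and that of Pecam1 from −0.15 to −0.020. The log2 fold change of Slco1a4 was −0.0066 with upper quartile normalization and ran from −0.082 to 0.073 with samples left out. That of Abcb1a was −0.0075 with the offsets, −0.0085 with offsets and block, and ran from −0.046 to 0.069 with samples left out. No other of the 10 genes changed sign.

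The 8 called genes of the other lists became 16 without a filter on low counts, 16 with DESeq2's Wald test, 19 with the replicate block, 55 with the offsets, 61 with offsets and block, and 4 to 35 with samples left out. The 286 called genes of the whole table became 648, 471, 783, 2376 and 3138 under the same settings in the same order, and 48 to 2211 with samples left out, the last without replicate 2 of 16 months; the cause was not tested beyond the GC offsets. Same-numbered samples deviated together with r = 0.180, 0.096 and 0.035 for replicates 1, 2 and 3, and 5 of 6 samples correlated best with their own number. The first fit nevertheless did not take the numbers as a pairing. Whether same-numbered samples share a step of processing was not tested. The replicate block changed the call of none of the 10 genes. Per kilobase of the longest transcript instead of all exons, levels of Slco1a4, Flt1 and Pecam1 came out over 1.5 times higher.

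Depth limits the genes under the filter, and 3 samples per age cannot give an exact permutation p below 0.1 for a single value.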
